A study of Mus musculus with 18 samples.

Results

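The suppressor of cytokine signalling (SOCS) family was followed through its 8 genes, Socs1, Socs2, Socs3, Socs4, Socs5, Socs6, Socs7 and Cish, which were picked by symbol out of the 24485 genes listed for each library. All 8 were found, and all 8 had an adjusted p-value in each comparison, so none was lost to the filter on low counts. RNA had been sequenced from bone marrow-derived macrophages (BMDMs), which are bone marrow cells differentiated in culture, here over 6 days in medium conditioned by L929 fibroblasts. The donors were 12-week-old male Il10-/- mice on the C57BL/6J background, so every group, controls included, carried the Il10 deletion. Cells were given 500 nM (+)-JQ1, 10 ng/mL IL-10 or no pretreatment for 12 h, and 50 ng/mL lipopolysaccharide (LPS) or PBS was then added for 4 h, which made 6 groups of 3 libraries named unstimulated, JQ1, IL-10, LPS, LPS + JQ1 and LPS + IL-10. Replicate numbers 1, 2 and 3 stood for 3 mice and paired the libraries across groups. The labels call cells without pretreatment untreated, whereas the methods name a vehicle control for them before LPS. The unstimulated control is described there as untreated. Comparisons and interactions that use it may therefore also differ by vehicle, which was not tested. These were cultured cells measured in bulk, and wild-type BMDMs were not analysed here.

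Cytokine receptors signal through Janus kinases (JAKs), which phosphorylate STAT transcription factors. Some SOCS genes are switched on by this signalling, so that the pathway is damped by its own products. SOCS proteins bind JAKs or phosphorylated receptors through an SH2 domain and recruit elongin B, elongin C and cullin 5 through a SOCS box. In macrophages SOCS1 restrains interferon and Toll-like receptor responses, and SOCS3 limits signalling through gp130, the shared subunit of the IL-6 receptor group, while leaving the IL-10 receptor free. LPS is a bacterial ligand of a Toll-like receptor, IL-10 is an anti-inflammatory cytokine that acts through STAT3, and (+)-JQ1 displaces BET bromodomain proteins from acetylated histones.

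The window from 250 bases before to 50 bases after the transcription start was held in the RefSeq promoter table (mouse build GRCm38.p6) for 4 of the 8 genes, Socs1, Socs3, Socs4 and Cish, and not for Socs2, Socs5, Socs6 or Socs7. The windows were searched on both strands for 3 letter patterns, TTCNNNGAA for STAT factors, a pair of GAAA separated by any NN for interferon regulatory factors and GGANTTTCC for NF-kB, which share no letters in any match listed here. TTCNNNGAA was present in 8.3% of all 32851 windows, the spaced GAAA pair in 3.44% and GGANTTTCC in 1.25%. Cish held 2 matches of the first pattern, at positions 1 to 9 and 12 to 20 counted from the first transcribed base, and Socs3 held 1, at positions -154 to -146 (negative before the start). Socs1 held 2 overlapping matches of the second pattern, at -83 to -74 and -77 to -68. No pattern was matched in Socs4 and the NF-kB pattern was matched in none of the 4, which says only that those letters are absent from these windows. The sequences of the 3 genes with a match are shown because these 3 genes had the highest LPS response of the family, with the matched letters in capitals. They are chr16:10785537-10785786 on the minus strand for Socs1, chr11:117969367-117969616 on the minus strand for Socs3 and chr9:107296654-107296683 on the plus strand for Cish.
Socs1: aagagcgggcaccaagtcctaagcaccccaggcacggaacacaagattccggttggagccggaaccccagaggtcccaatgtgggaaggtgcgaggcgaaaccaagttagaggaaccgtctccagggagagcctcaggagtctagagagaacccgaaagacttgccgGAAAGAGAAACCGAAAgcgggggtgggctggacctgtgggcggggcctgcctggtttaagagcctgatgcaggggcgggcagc
Socs3: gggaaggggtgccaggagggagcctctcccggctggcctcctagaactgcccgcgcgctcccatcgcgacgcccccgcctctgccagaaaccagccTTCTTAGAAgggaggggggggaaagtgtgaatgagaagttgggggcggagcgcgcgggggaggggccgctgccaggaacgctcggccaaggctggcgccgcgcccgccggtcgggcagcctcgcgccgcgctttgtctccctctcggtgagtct
Cish: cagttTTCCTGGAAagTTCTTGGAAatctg

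Libraries held 6781952 to 28289498 expected counts, so that 3 counts, the smallest value read as a signal, were worth 0.106 to 0.442 CPM (counts scaled to a common library size). All 6 macrophage markers (Csf1r, Adgre1, Itgam, Cd68, Lyz2 and Mertk) were above 3 counts in every group, with summed TPM (transcript abundance per length, which adds up to the same total in each library) of 2.24e+04 to 2.83e+04 without LPS and 1.25e+04 to 2.05e+04 with LPS. T cell markers summed to at most 0.45 TPM and 3 B cell markers (Cd79a, Cd79b and Ms4a1) to at most 5.13 TPM. Of the 6 neutrophil markers S100a8 and S100a9 reached 37.6 and 40.9 TPM, whereas Ly6g was at 0 in all libraries. Il10 reads were counted in every library (16 to 196 expected counts), and since all groups carried the deletion they cannot check the labels. Unstimulated replicate 1 stood apart in the genes of this pathway: 3 of 59 genes of the JAK-STAT lists described below (among them Il12b and Usp18) were at least 2 times as high as in both other unstimulated libraries, against 0 in either of the others. Socs1, Socs2, Socs3, Socs7 and Cish were also highest in this library. Results that rest on it are given with and without it. Fold changes depended on scaling. Between LPS and unstimulated cells the median log2 fold change of expressed genes was -0.07 with DESeq2 size factors and -1.0 with scaling to the library total, and 49% against 20.1% of the called genes were higher. The same split moved from 48% to 26.8% for JQ1 against unstimulated, from 42.5% to 64.9% for LPS + JQ1 against LPS, from 48.7% to 71.1% for LPS + IL-10 against LPS, from 47.1% to 25.6% for LPS + JQ1 against JQ1, from 49.6% to 21% for LPS + IL-10 against IL-10, from 42.9% to 61.2% between both pretreatments under LPS, and from 42.6% to 85.4% and 53.7% to 73.6% for the interactions with JQ1 and IL-10. Where the call or direction of a member's printed value differs between these scalings, both values are given.

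LPS raised the summed level of the family and shifted it from Socs6, Socs4 and Socs5 to Socs3 and Socs1. TPM, the scale on which levels of different genes can be compared, summed over the 8 genes to 67.7 ± 3.08 (SD, n = 3) in unstimulated cells, 60.4 ± 3.72 with JQ1 and 108.1 ± 9.81 with IL-10. Under LPS the sums were 1411 ± 78.9 without pretreatment, 996.1 ± 57.5 after JQ1 and 1741 ± 109.8 after IL-10, and none of the 3 LPS groups overlapped another. Shares were taken in each library and averaged over the 3 libraries of a group. Socs6 held the largest share in unstimulated cells (40.1%), ahead of Socs4 (18.2%) and Socs5 (17.2%), and kept 42.1% with JQ1. Socs3 held 6.11% of the unstimulated sum, 40.1% with IL-10, 60.2% under LPS, 65.9% under LPS after JQ1 and 79.6% under LPS after IL-10. Socs1 took most of the remainder under LPS, at 32.2% without pretreatment, 26.3% after JQ1 and 17% after IL-10. A cell with fewer SOCS transcripts and fewer cells that carry them cannot be told apart in bulk RNA.

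**Figure D1:**
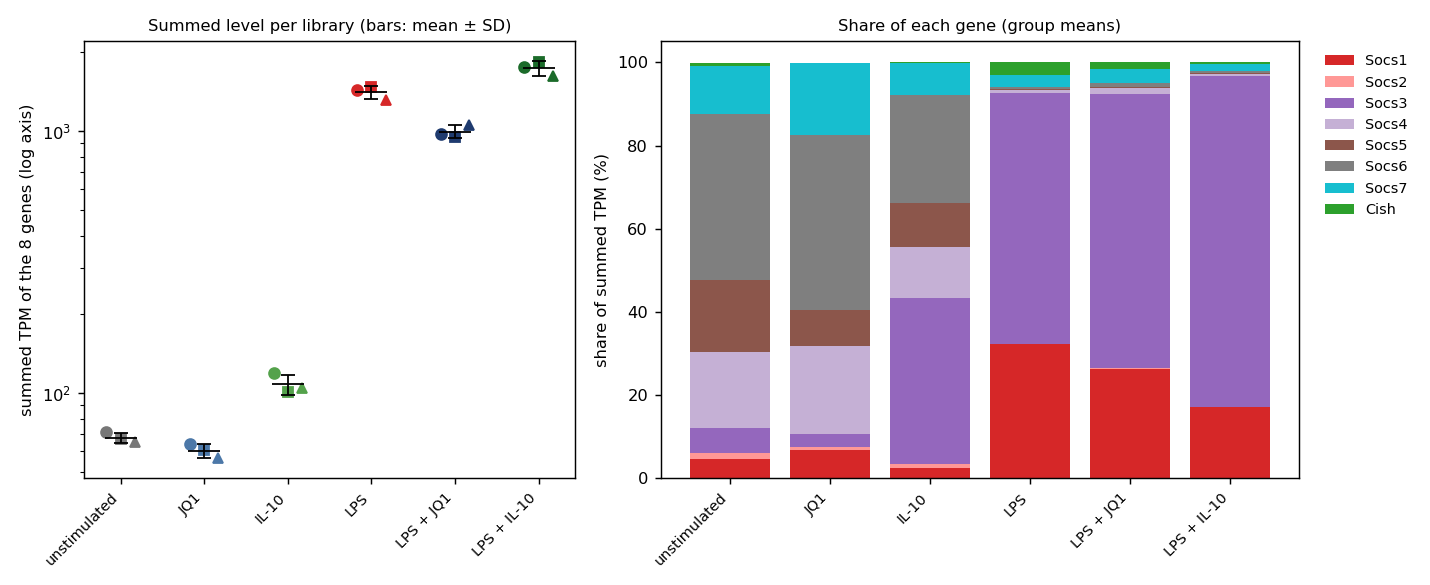
Summed TPM of the 8 SOCS genes in each library (left, log axis). Points are libraries, with circles, squares and triangles for mice 1, 2 and 3, and bars are mean ± SD. The right panel gives each gene's percent share of the library sum, averaged over the 3 libraries of a group. The sums lie between 56.5 and 119.2 TPM without LPS and between 950.5 and 1842 TPM with LPS, where Socs3 and Socs1 hold nearly the whole bar.

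LPS changed all 8 genes in cells without pretreatment, 6 upward and 2 downward, where 31.6% of all genes tested rose and 32.9% fell. Socs3 rose 343-fold, Socs1 237-fold and Cish 160-fold, Socs7 rose 8.65-fold and Socs2 4.19-fold, while Socs5 and Socs6 fell. The median log2 fold change was 2.59 over the 8 members and -0.07 over all genes tested. Values below are counts normalised by DESeq2 size factors for replicates 1, 2 and 3, and fold changes come from the DESeq2 Wald test across all 18 libraries.

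Socs3 (chromosome 11, 117827393 to 117831361, minus strand, in mm9, the build of all gene positions from here on) was counted at 173.6, 23.7 and 36.2 in unstimulated cells and at 28847, 28375 and 23772 with LPS. The 3 LPS libraries lay far above the 3 unstimulated ones, of which replicate 1 was the highest by over 4 times. The log2 fold change was 8.42 ± 0.527 (SE, adjusted p = 1.58e-56), and without unstimulated replicate 1 it was 9.72. Socs3 was also the member most abundant per transcript length after LPS, at 849.1 ± 36 TPM.

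Socs1 (chromosome 16, 10783901 to 10785629, minus strand) encodes a direct inhibitor of JAK kinase activity. It was counted at 41.7, 16.9 and 14.7 without stimulation and at 6692, 6330 and 4740 with LPS. No library of one group came near the other, and the log2 fold change was 7.89 ± 0.352 (adjusted p = 4.47e-110), or 8.58 without unstimulated replicate 1. Its level rose from 3.21 ± 1.98 to 454.5 ± 50.5 TPM, second to Socs3.

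Cish (chromosome 9, 107198357 to 107205115, plus strand) encodes CIS, the STAT5-induced member that binds STAT5-recruiting receptors. Its counts were 17, 3.38 and 6.03 in unstimulated cells, close to the detection limit, and 1445, 1593 and 1405 with LPS. The log2 fold change was 7.32 ± 0.582 (adjusted p = 1.97e-35), or 8.17 without unstimulated replicate 1. Exons of Cish overlap the opposite-strand genes Gm17040 and Gm17041 in the mm9 annotation, and reads were assigned without regard to strand, so reads of these genes cannot be told apart from those of Cish.

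Socs7 (chromosome 11, 97223865 to 97259856, plus strand), a member tied to insulin receptor substrates, started from a higher level than Socs3, Socs1, Cish and Socs2. It was counted at 420.4, 380.5 and 376.1 without stimulation and at 3607, 3370 and 3227 with LPS, with a log2 fold change of 3.11 ± 0.1 (adjusted p = 7.39e-210). Replicates were tight in both groups. Socs2 (chromosome 10, 94847996 to 94879814, minus strand), the inhibitor of growth hormone signalling, was the rarest member under LPS: 18.5, 13.5 and 8.04 rose to 56.6, 49.6 and 60.2 (log2 fold change 2.07 ± 0.38, adjusted p = 1.32e-07). Even after this rise its level was only 2.23 ± 0.342 TPM.

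Socs4, Socs5 and Socs6, which made up most of the family's RNA in unstimulated cells, responded least by normalised count. Socs5 (chromosome 17, 87507019 to 87536923, plus strand) fell from 342.5, 343.3 and 382.1 to 203.6, 184.0 and 182.9, a log2 fold change of -0.92 ± 0.112 (adjusted p = 1.16e-15). Socs6 (chromosome 18, 88834616 to 89096873, minus strand), which is known to bind the receptor KIT, fell from 493.7, 703.6 and 593.9 to 343.6, 311.2 and 402.7 (-0.75 ± 0.139, adjusted p = 1.75e-07). Both falls were larger when scaled to the library total, at -1.84 and -1.68. On that scale the rise of Socs2 was smaller in size, at 1.14. Socs4 (chromosome 14, 47896606 to 47915773, plus strand), the closest relative of Socs5, rose from 160.5, 206.3 and 163.6 to 231.9, 232.6 and 252.9 by normalised count (0.46 ± 0.155, adjusted p = 0.00549). Its direction depended on the scale: it was -0.47 (adjusted p = 0.00514) after scaling to the library total, and the TPM means were 12.3 ± 1.34 in unstimulated and 9.78 ± 1.21 in LPS cells. Without mouse 1 or without mouse 3 the rise of Socs4 did not pass the test (0.42, adjusted p = 0.1 and 0.36, adjusted p = 0.115).

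**Figure D2:**
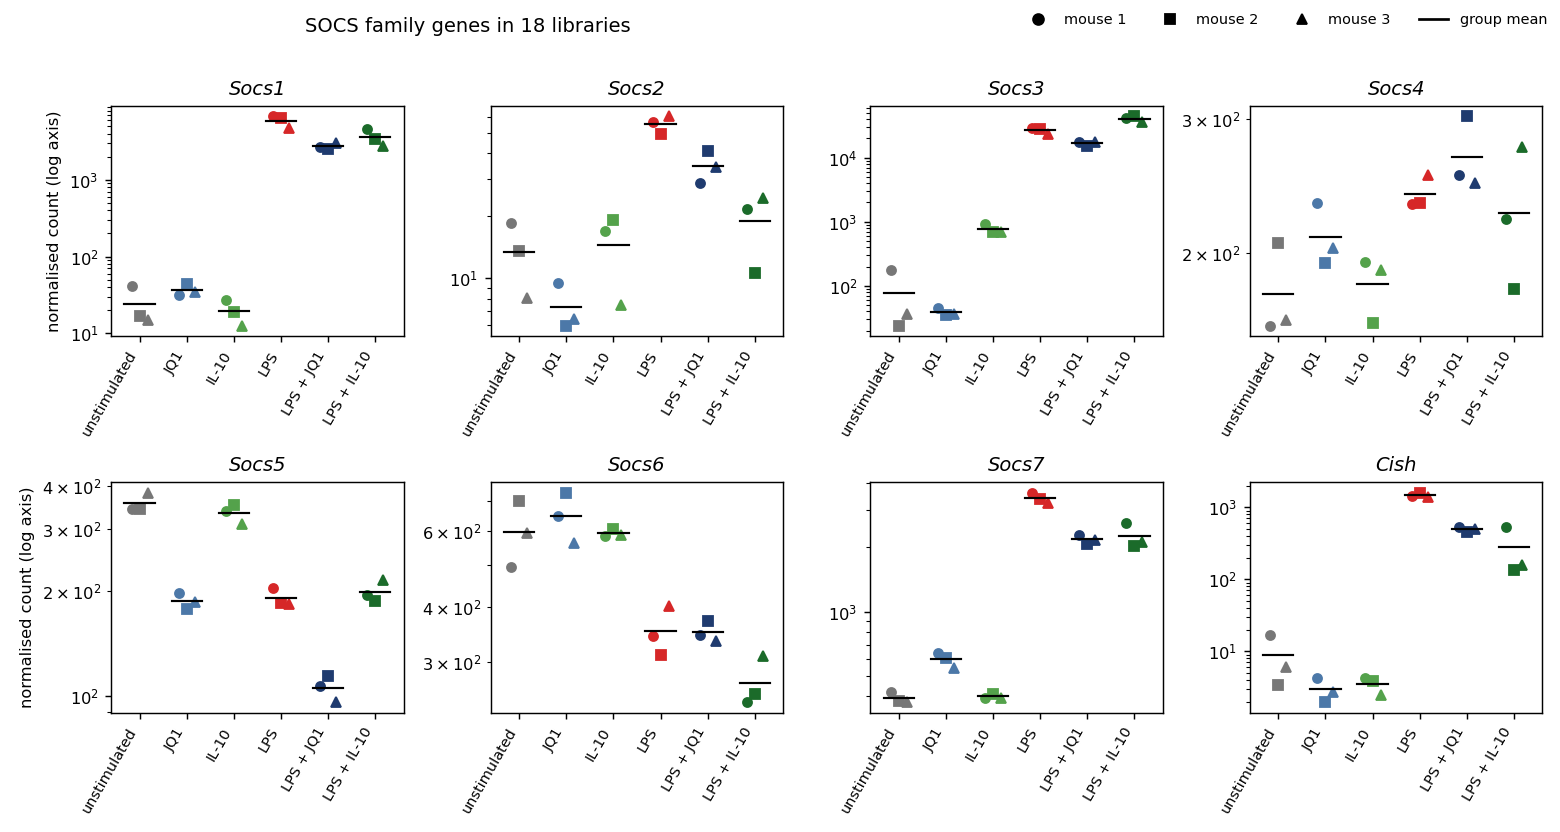
Normalised counts of each SOCS gene in the 18 libraries (log axis that differs between panels; circles, squares and triangles are mice 1, 2 and 3, black lines are group means). Socs1, Socs3 and Cish rise 160-fold to 343-fold with LPS, and Socs5 and Socs6 fall. The unstimulated library of mouse 1 is the highest of its group for Socs1, Socs2, Socs3, Socs7 and Cish.

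IL-10 alone changed 1 member, Socs3, where 1.80% of all genes tested rose and 1.01% fell. Socs3 was counted at 930.6, 703.1 and 691.2 with IL-10 against 173.6, 23.7 and 36.2 without it. The groups did not overlap, and the log2 fold change was 3.30 ± 0.527 (adjusted p = 1.23e-07), or 4.60 (adjusted p = 4.55e-86) without unstimulated replicate 1. At 43.6 ± 7.85 TPM Socs3 became the most abundant SOCS transcript of IL-10-treated cells, above Socs6 at 27.9 ± 0.494 TPM. No member was called lower by DESeq2, 1 was lower at an unadjusted p under 0.05, and edgeR and limma called none lower. That 1 was Cish, at 4.32, 3.84 and 2.49 with IL-10 against 17, 3.38 and 6.03 without, with a log2 fold change of -1.35 ± 0.678 (adjusted p = 0.506), or -0.47 without unstimulated replicate 1. Socs4, Socs5, Socs6 and Socs7 lay between -0.10 and 0.07 with standard errors of 0.0972 to 0.152.

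JQ1 alone called 2 members, Socs7 upward and Socs5 downward, where 21.9% of all genes tested rose and 23.7% fell. Socs5 was counted at 197.2, 177.4 and 185.9 with JQ1 against 342.5, 343.3 and 382.1 without it, a log2 fold change of -0.94 ± 0.107 (adjusted p = 5.83e-17). The fall with LPS was -0.92 on the same scale, while after scaling to the library total the values were -1.11 with JQ1 and -1.84 with LPS. Socs7 moved to 641.7, 607.2 and 543.1 from 420.4, 380.5 and 376.1, a log2 fold change of 0.60 ± 0.104 (adjusted p = 5.10e-08), and it was 0.43 when scaled to the library total. Both groups were apart in both genes and all 3 mice moved the same way.

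For the inducible members the answer in resting cells hung on single libraries of the unstimulated group. Socs1 was counted at 31.1, 43.4 and 34.8 with JQ1, which overlapped the unstimulated range, and its log2 fold change was 0.54 ± 0.376 (adjusted p = 0.245), against 1.23 (adjusted p = 0.00238) without unstimulated replicate 1. Socs3 was counted at 45.8, 35.5 and 36.6 with JQ1, with -1.0 ± 0.542 (adjusted p = 0.122), and without unstimulated replicate 1 its value turned to 0.30 (adjusted p = 0.385). Without unstimulated replicate 2 or 3 Socs3 was called lower (-1.41, adjusted p = 0.00206 and -1.37, adjusted p = 0.0109). The same held for 3 rarer or smaller changes. Socs2 was at 9.51, 5.91 and 6.41 with JQ1 (-0.85 ± 0.465, adjusted p = 0.126) and was called without unstimulated replicate 3 (-1.18, adjusted p = 0.0427), but was at -0.44 (adjusted p = 0.56) without replicate 1. Cish was at 4.32, 1.97 and 2.75 (-1.61 ± 0.74, adjusted p = 0.0635) and was called without unstimulated replicate 2 (-1.91, adjusted p = 0.0311) and on the library total scale (-1.78, adjusted p = 0.034), but was at -0.75 (adjusted p = 0.469) without replicate 1. Socs4, at 0.27 ± 0.153 (adjusted p = 0.138), was called higher without unstimulated replicate 2 (0.38, adjusted p = 0.0496). Socs6 was at 0.13 ± 0.134 (adjusted p = 0.469), and at -0.05 on the library total scale. Neutrophil and B cell markers moved with JQ1 too. The 6 neutrophil markers summed to 6.76 to 13.4 TPM with JQ1 and 21.1 to 75.4 TPM without, and the 3 B cell markers to 0.2 to 0.5 and 2.34 to 5.13 TPM. Summed TPM of T cell, dendritic cell, mast cell or basophil, fibroblast and erythroid markers overlapped between JQ1 and unstimulated cells. Of the 6 neutrophil markers only 2 were above 3 counts with JQ1 and 3 without. Ly6g was at 0 in all libraries, and the part of these cells in the SOCS values was not tested.

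JQ1 before LPS left 4 members lower than LPS alone, Socs1, Socs5, Socs7 and Cish, and called none higher, where 24.4% of all genes tested were higher and 32.9% lower. DESeq2 and edgeR found no member higher at an unadjusted p under 0.05, and limma on TPM called 1, Socs4. Cish showed the largest difference of the 4: it was counted at 526.8, 453.9 and 496.1 with LPS + JQ1 against 1445, 1593 and 1405 with LPS. The log2 fold change was -1.59 ± 0.517 (adjusted p = 0.00454), a 3.01-fold lower count, and it did not pass the test without mouse 2 (adjusted p = 0.0524) or mouse 3 (adjusted p = 0.0621). Socs1 was counted at 2692, 2495 and 3059 against 6692, 6330 and 4740, with -1.11 ± 0.311 (adjusted p = 0.0009), and it missed the threshold without mouse 2 (-0.98, adjusted p = 0.0897). The groups of both genes were apart in all 3 mice. Without unstimulated replicate 1, a library in neither group, Cish was at -1.58 (adjusted p = 1.86e-05) and Socs1 at -1.10 (adjusted p = 1.56e-08). The summed TPM of the 6 neutrophil markers was 32.4 to 45.9 with LPS and 10.7 to 23.9 with LPS + JQ1. Only 2 of the 6 were above 3 counts in each group, and Ly6g, Elane and Retnlg were at 0 in both. The 3 B cell markers summed to 0.82 to 1.44 TPM with LPS and 0.1 to 0.68 TPM with LPS + JQ1. The part of these cells in the SOCS values was not tested.

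Socs5 was at 107.1, 113.7 and 96 with LPS + JQ1 against 203.6, 184.0 and 182.9 with LPS (-0.84 ± 0.134, adjusted p = 1.70e-09), the lowest level it had in any group. Socs7 was at 2293, 2075 and 2174 against 3607, 3370 and 3227 (-0.64 ± 0.0931, adjusted p = 2.77e-11). Scaled to the library total these differences were smaller, -0.46 for Socs5 and -0.26 for Socs7, and both still passed. Socs3 was at 17531, 15259 and 17804 against 28847, 28375 and 23772, so that the groups did not overlap and every mouse had the lower count with JQ1. Its log2 fold change of -0.68 ± 0.518 nevertheless did not pass (adjusted p = 0.266). The dispersion of Socs3 was 0.193 in the fit of all libraries and 0.011 without unstimulated replicate 1, a library that is in neither group, and the adjusted p without it was 1.82e-07 for a value of -0.67. With only the LPS and LPS + JQ1 libraries in the fit it was 1.69e-07. Socs2 at 28.7, 41.1 and 34.5 (-0.67 ± 0.342, adjusted p = 0.0827) was lower in all 3 mice without passing, and Socs4 (0.16 ± 0.152, adjusted p = 0.371) and Socs6 (0.00 ± 0.143 below LPS, adjusted p = 0.987) had overlapping ranges. On the library total scale Socs4 and Socs6 were higher with LPS + JQ1 (0.54, adjusted p = 0.0014 and 0.37, adjusted p = 0.0172).

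IL-10 before LPS also left 4 members lower, Cish, Socs2, Socs7 and Socs6, and called none higher, where 8.38% of all genes tested were higher and 8.81% lower. DESeq2 found 0 members higher at an unadjusted p under 0.05, edgeR called 0 with 1 at an unadjusted p under 0.05, and limma called 0. Cish was counted at 540.0, 133.8 and 157.8 with LPS + IL-10 against 1445, 1593 and 1405 with LPS, which is a log2 fold change of -2.42 ± 0.519 (adjusted p = 5.34e-05), or -3.33 (adjusted p = 1.55e-106) without LPS + IL-10 replicate 1. Mouse 1 kept over 3 times the Cish of the other mice in this group, yet lay far below every LPS library. Socs2 was at 21.7, 10.6 and 24.3 against 56.6, 49.6 and 60.2 (-1.51 ± 0.372, adjusted p = 0.000627), close to its unstimulated range. It missed the threshold without mouse 1 (-1.60, adjusted p = 0.0501) or mouse 2 (-1.34, adjusted p = 0.0887).

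Socs7 was at 2613, 2026 and 2112 with LPS + IL-10 (-0.60 ± 0.0933, adjusted p = 6.59e-09), almost the difference seen with JQ1 on this scale. Scaled to the library total it was -0.50 with IL-10 and -0.26 with JQ1. Socs6 was at 242.2, 252.3 and 309.3 against 343.6, 311.2 and 402.7 (-0.38 ± 0.146, adjusted p = 0.0499), a call at the edge of the threshold that was lost in most alternatives, among them edgeR (adjusted p = 0.068), scaling to the library total (-0.29, adjusted p = 0.175), the fit without LPS replicate 1 (-0.40, adjusted p = 0.0881) or 3 (-0.28, adjusted p = 0.28) and the fit without LPS + IL-10 replicate 1 (-0.31, adjusted p = 0.21) or 2 (-0.34, adjusted p = 0.189). Socs1 was at 4639, 3454 and 2724, below the LPS range in all 3 mice, with -0.72 ± 0.311 (adjusted p = 0.101). In the fit with mouse as a block it passed (-0.73, adjusted p = 0.0343), as it did without unstimulated replicate 1 (-0.72, adjusted p = 0.00152) or without LPS + IL-10 replicate 1 (-0.94, adjusted p = 0.0309). Socs3 went the other way. It was counted at 41996, 43947 and 36287, above every LPS library, with 0.59 ± 0.518 (adjusted p = 0.534), and passed without unstimulated replicate 1 (0.59, adjusted p = 2.70e-05) or with only both groups in the fit (0.61, adjusted p = 5.16e-05). Socs4 (-0.07 ± 0.155, and 0.03 on the library total scale) and Socs5 (0.08 ± 0.122) had overlapping ranges.

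**Figure D3:**
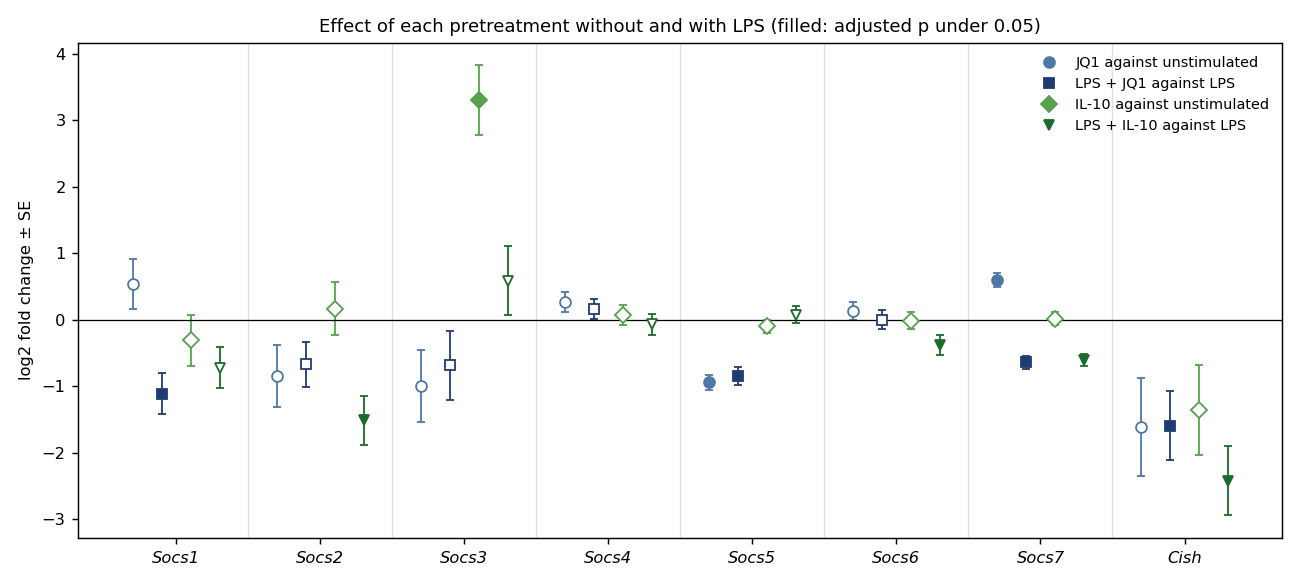
Log2 fold change ± SE of each SOCS gene for JQ1 and IL-10 pretreatment, without LPS (against unstimulated) and with LPS (against LPS alone); filled symbols have an adjusted p under 0.05. IL-10 raises Socs3 by 3.30 in resting cells, Socs5 is lower with JQ1 in both states, and Socs7 changes from 0.60 to -0.64 under JQ1.

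Both pretreatments were then set against each other under LPS. In LPS + JQ1 cells Socs6 and Socs2 were called higher and Socs3 and Socs5 lower than in LPS + IL-10 cells, where 23.8% of all genes tested were higher and 31.6% lower, so that 2 of 8 in each direction is close to the share of all genes. The Socs3 difference was -1.27 ± 0.518 (adjusted p = 0.0271), with 15259 to 17804 counts against 36287 to 43947, and the Socs5 difference was -0.92 ± 0.134 (adjusted p = 2.69e-11). The Socs3 call was lost when a library of either group other than LPS + IL-10 replicate 3 was left out (adjusted p = 0.0556 to 0.0798) and on the library total scale (-0.99, adjusted p = 0.0947), and was held without unstimulated replicate 1 (-1.27, adjusted p = 1.11e-23). Socs6 (0.38 ± 0.146, adjusted p = 0.0181) was not called without LPS + JQ1 replicate 2 (0.34, adjusted p = 0.0741), LPS + IL-10 replicate 1 (0.31, adjusted p = 0.1) or LPS + IL-10 replicate 2 (0.34, adjusted p = 0.0687). Socs2 (0.84 ± 0.381, adjusted p = 0.0499) was at the threshold and was lost with mouse as a block (0.84, adjusted p = 0.0593), without LPS + JQ1 replicate 2 (0.70) or 3 (0.85) and without LPS + IL-10 replicate 1 (0.92) or 2 (0.59). Cish was at 0.83 ± 0.52 (adjusted p = 0.171). Its count ranges overlapped, at 453.9 to 526.8 with LPS + JQ1 and 133.8 to 540.0 with LPS + IL-10. In mouse 1 the count was lower with LPS + JQ1. Whether Cish was called depended on the setting. It was called with all libraries in edgeR (0.94, adjusted p = 0.0139), in limma on TPM (1.17, adjusted p = 0.00434), on the library total scale (1.13, adjusted p = 0.0464) and with mouse as a block (1.07, adjusted p = 0.0267). It was also called without unstimulated replicate 1 (0.83, adjusted p = 0.0351) and without LPS + IL-10 replicate 1 (1.74, adjusted p = 1.19e-28). The count ranges of Socs1, Socs4 and Socs7 overlapped between these groups as well, and DESeq2 with its own size factors called none of these 3. Socs4, at 0.23 (adjusted p = 0.199), was called in edgeR (0.32, adjusted p = 0.0485), in limma on TPM (0.42, adjusted p = 0.0427), with TMM (0.33, adjusted p = 0.0498), on the library total scale (0.51, adjusted p = 0.00273) and without LPS + IL-10 replicate 3 (0.41, adjusted p = 0.0204). Socs7 turned from -0.05 (adjusted p = 0.72) to 0.24 (adjusted p = 0.00988) on the library total scale, and Socs1, at -0.39, was called without mouse 3 (-0.64, adjusted p = 0.0446).

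**Figure D4:**
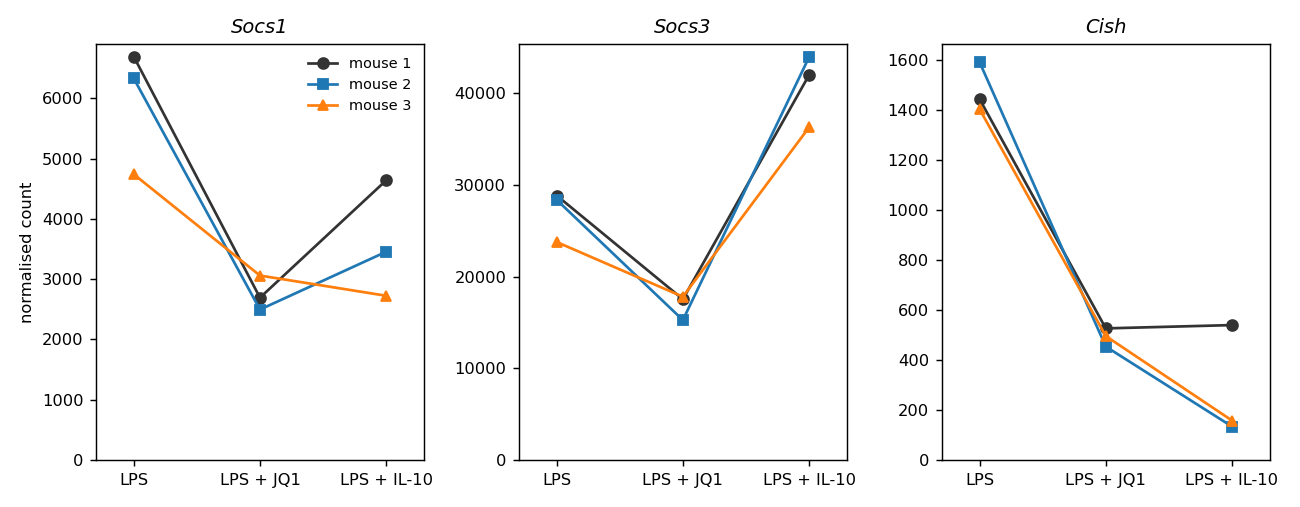
Normalised counts of Socs1, Socs3 and Cish in the 3 LPS groups (linear axes from 0), with lines joining the libraries of each mouse. Socs3 is lowest with LPS + JQ1 and highest with LPS + IL-10 in all 3 mice, and the LPS + IL-10 library of mouse 1 holds 540.0 Cish counts against 133.8 and 157.8 in the other mice.

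The response to LPS was then compared between pretreated and other cells. In JQ1-pretreated cells all 8 members were called, 6 upward and 2 downward, where 27.6% of all genes tested rose and 31.0% fell. In IL-10-pretreated cells 6 were called, 4 upward and 2 downward, where 33.2% rose and 33.8% fell. Socs3 rose by 8.74 ± 0.534 on the log2 scale after JQ1 and by 5.72 ± 0.519 after IL-10, and Socs1 by 6.24 ± 0.338 and 7.48 ± 0.345. Cish rose by 7.34 ± 0.69 and 6.25 ± 0.624, and Socs7 by 1.87 ± 0.0974 and 2.49 ± 0.0979. Socs5 and Socs6 fell in both settings, by 0.82 and 0.88 after JQ1 and by 0.74 and 1.13 after IL-10. Socs2 rose after JQ1 (2.25 ± 0.434, adjusted p = 7.60e-07), whereas after IL-10 it was counted at 21.7, 10.6 and 24.3 with LPS and 16.9, 19.2 and 7.48 without (0.39 ± 0.391, adjusted p = 0.383, and -0.44 on the library total scale). Socs4 was at 0.35 ± 0.15 after JQ1 (adjusted p = 0.0354), a call lost without JQ1 replicate 2 (0.30) or 3 (0.33) and LPS + JQ1 replicate 2 (0.25), and at 0.32 ± 0.151 after IL-10 (adjusted p = 0.0507), which passed without LPS + IL-10 replicate 2 (0.46, adjusted p = 0.00445). On the library total scale these were -0.03 (adjusted p = 0.907) and -0.51 (adjusted p = 0.00181).

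**Figure D5:**
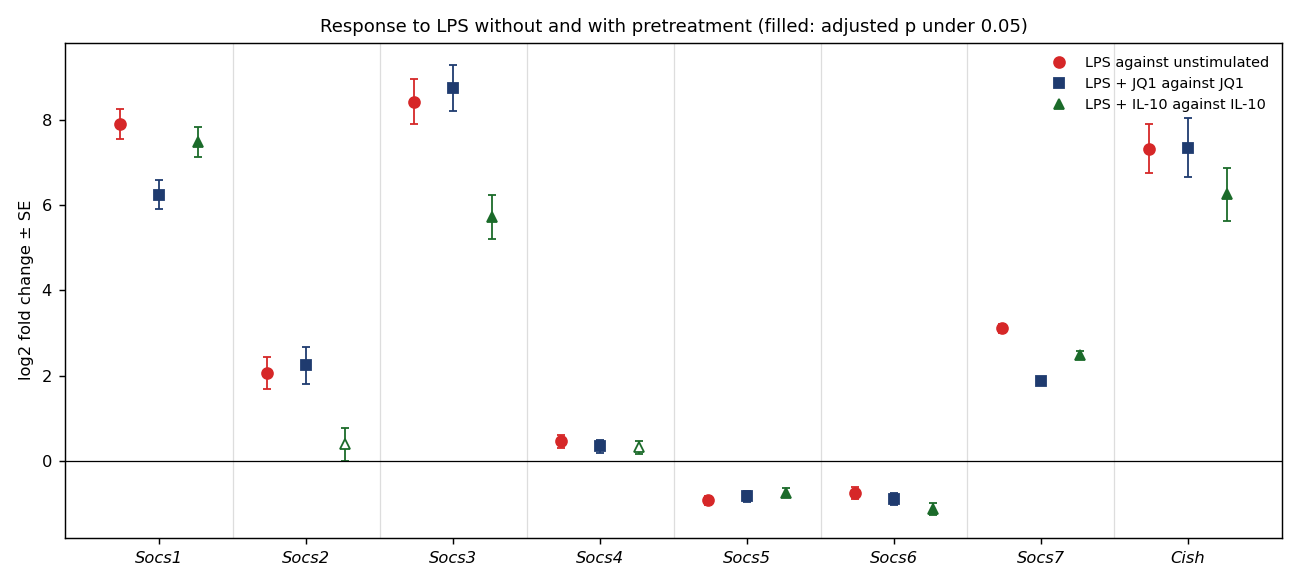
Log2 fold change ± SE of each SOCS gene with LPS in cells without pretreatment (circles), with JQ1 (squares) and with IL-10 (triangles); filled symbols have an adjusted p under 0.05. The response of Socs3 is smaller after IL-10 (5.72 against 8.42), that of Socs1 is smaller after JQ1 (6.24 against 7.89), and Socs2 after IL-10 is at 0.39.

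Interaction terms tested whether each LPS response differed with pretreatment. With JQ1, 2 members were called, both negative, where 17.7% of all genes tested were higher and 23.8% lower. These were Socs1 (-1.65 ± 0.488, adjusted p = 0.00266) and Socs7 (-1.25 ± 0.14, adjusted p = 1.48e-17), each of which had a value above 0 with JQ1 at rest (0.54 and 0.60) and below 0 under LPS (-1.11 and -0.64). Socs1 was not called without mouse 2 (-1.22, adjusted p = 0.208) and was at -2.33 without unstimulated replicate 1 and -1.09 on the library total scale. No positive interaction with JQ1 was called by DESeq2 with its own size factors or by edgeR, with 0 at an unadjusted p under 0.05 in either. Socs5 was called positive by limma on TPM (0.60, adjusted p = 0.00207) and by DESeq2 on the library total scale (0.65, adjusted p = 0.000749). The Socs3 interaction with JQ1 was 0.32 ± 0.75 (adjusted p = 0.771) and became -0.98 (adjusted p = 0.00288) without unstimulated replicate 1, so its direction rests on that library.

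With IL-10, 3 members were called, all negative, where 4.00% of all genes tested were higher and 3.44% lower. Socs3 was at -2.71 ± 0.739 (adjusted p = 0.0056), or -4.01 (adjusted p = 6.25e-50) without unstimulated replicate 1, and it did not pass without mouse 2 (-2.38, adjusted p = 0.0782) or mouse 3 (-2.44, adjusted p = 0.0924). IL-10 raised it 9.85-fold at rest and by a factor of 1.51 under LPS. Socs7 was at -0.62 ± 0.14 (adjusted p = 0.000365), and did not pass without mouse 2 (-0.52, adjusted p = 0.175). Socs2 was at -1.68 ± 0.545 (adjusted p = 0.0317), which did not pass without unstimulated replicate 2 (-1.69), IL-10 replicate 1 (-1.54) or 2 (-1.48), or LPS + IL-10 replicate 2 (-1.43). Nor did it pass in limma on log2(TPM + 1) (-0.93, adjusted p = 0.0529) or with only the compared groups in the fit (-1.69, adjusted p = 0.0599). On the library total scale it had no adjusted p. No positive interaction with IL-10 was called by DESeq2, edgeR or limma, with 0 at an unadjusted p under 0.05 in each. Cish at -1.07 ± 0.853 (adjusted p = 0.643) was called by limma on log2(TPM + 1) with all libraries (-2.16, adjusted p = 0.0096). It was also called without LPS + IL-10 replicate 1 (-1.95, adjusted p = 0.000587) and was at -1.94 (adjusted p = 0.13) without unstimulated replicate 1.

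Ordered by TPM, the groups ranked differently for each gene. Socs3 ran from LPS + IL-10 (1385 ± 105.0) through LPS (849.1 ± 36), LPS + JQ1 (656.3 ± 36.7) and IL-10 (43.6 ± 7.85) to unstimulated (4.25 ± 4.57) and JQ1 (1.85 ± 0.305), and only the last 2 neighbours overlapped. Socs1 ran from LPS (454.5 ± 50.5) to LPS + IL-10 (296.6 ± 59.1) and LPS + JQ1 (261.8 ± 24.5), the latter pair overlapping, and the 3 groups without LPS overlapped at 2.58 to 4.1. Cish ran from LPS (42.2 ± 3.34) to LPS + JQ1 (17.3 ± 0.512) and LPS + IL-10 (8.27 ± 6.21), all apart, above 3 overlapping groups at 0.137 to 0.44. Socs7 had the same top with LPS at 39.8 ± 0.972, LPS + JQ1 at 31.6 ± 0.157 and LPS + IL-10 at 28.3 ± 2.41, followed by JQ1 at 10.4 ± 0.857, and only IL-10 (8.33 ± 0.158) and unstimulated (7.88 ± 0.598) overlapped. By normalised count LPS + JQ1 and LPS + IL-10 overlapped for both Cish and Socs7.

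Socs5 was highest in unstimulated (11.6 ± 1.06) and IL-10 cells (11.3 ± 0.355), which overlapped, and lowest with LPS + JQ1 (2.49 ± 0.273), with JQ1 at 5.29 ± 0.432, LPS + IL-10 at 4.1 ± 0.539 and LPS at 3.61 ± 0.15 between them, the last 2 overlapping. Socs6 split into 3 overlapping groups without LPS (25.5 to 27.9) and 3 groups with LPS (7.71 to 11.5) whose neighbours overlapped. Socs4 stayed between 9.78 and 13.5 with every pair of neighbours overlapping, and Socs2 stayed between 0.427 and 2.23, with a gap only below LPS + JQ1.

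Across the 18 libraries, which share mice, lanes and the LPS contrast, Socs1 and Socs7 had the closest profiles within the family (Pearson r of log2 normalised counts 0.99), followed by Socs1 and Cish (0.97) and Socs7 and Cish (0.96). Socs6 ran opposite to Socs3 (-0.92) and Socs1 (-0.91). Among the 9488 genes averaging 50 or more normalised counts, the profiles nearest to Socs1 were those of Hivep1 and Stau1 (0.997 each) and Icosl (0.996), and those nearest to Socs7 were Prrc2c (0.997), Crlf3 (0.995) and Trip10 (0.994). For Cish they were Swap70 (0.991), Cx3cl1 and Sele (0.987 each). For Socs3 the nearest, Dennd1a (0.980), Parp8 (0.975) and Pik3r5 (0.974), were less close, and for Socs4 less still (Papolg 0.915, Gmps 0.908, Elmod2 0.898). For Socs5 they were Txndc15 (0.991), Il7r (0.987) and F630028O10Rik (0.984), and for Socs6 Uhrf2 (0.965), Vsir (0.959) and Nanos1 (0.958). Socs2, with a mean below 50, was not ranked.

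The pathway around the family was read from 75 genes in 8 lists, of which 51 of 73 tested were called higher and 14 lower with LPS, where 31.6% and 32.9% of all genes tested were. Of 14 ligands tested 12 rose, of 4 JAKs 3 rose and of 7 STATs 6 rose. Jak2 rose by 5.30 ± 0.113 on the log2 scale and Stat5a, whose protein induces Cish, by 4.35 ± 0.0952. Of 20 receptors 11 rose and 6 fell, with Il6ra at -3.16 ± 0.133 (adjusted p = 3.53e-123). Of the 4 partners of the SOCS box ligase 3 rose by count, the elongin C gene Tceb1 by 1.39 ± 0.228, the cullin 5 gene Cul5 by 0.52 ± 0.161 and the elongin B gene Tceb2 by 0.45 ± 0.0966, and the latter pair turned negative on the library total scale (-0.40 and -0.48). Among 11 other JAK-STAT inhibitors 6 rose and 4 fell, led by Usp18, an inhibitor of interferon receptor signalling, at 7.52 ± 0.304. Of 6 other SOCS box proteins 3 rose and 3 fell. All 7 STAT3 and STAT5 target genes rose, with a median log2 fold change of 1.14, led by Pim1 at 5.82 ± 0.116 (4.89 on the library total scale). The numbers of list genes called, here and below, were read with DESeq2 size factors only and were not recounted on the library total scale.

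IL-10 alone called 10 of 71 genes of these lists higher and 3 lower, where 1.80% and 1.01% of all genes tested were. Of the 7 STAT3 and STAT5 target genes 5 rose beside Socs3, among them Nfil3 (1.09 ± 0.15), Bcl3 (1.01 ± 0.181) and Sbno2 (0.77 ± 0.115), and Stat3 itself rose by 0.75 ± 0.0944. None of the ligase partners and none of the 6 other SOCS box proteins was called by DESeq2. Under LPS, IL-10 called 22 of 68 genes higher and 15 lower (8.38% and 8.81% of all genes tested), with 8 of 12 ligands lower, including Il6 (-1.79 ± 0.417) and Il12a (-2.31 ± 0.595), and 5 of 7 STAT target genes higher, including Sbno2 (1.09 ± 0.115). Stat5a (-0.46 ± 0.0869) and Stat5b (-0.42 ± 0.0788) were the 2 STATs called, both lower.

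JQ1 under LPS called 42 of 72 genes lower and 15 higher, where 32.9% and 24.4% of all genes tested were. Of 13 ligands 10 were lower, with Il27 at -4.67 ± 0.28 and Il6 at -4.88 ± 0.419, and of 7 STATs 5 were lower, with Stat3 at -1.0 ± 0.0928. Stat5b was among the lower STATs (-0.86 ± 0.0793). Stat5a was not, with mean normalised counts of 9214 with LPS + JQ1 and 8393 with LPS. Jak2 was lower by -1.04 ± 0.106 and Cul5 by -0.84 ± 0.164. Of 7 STAT target genes 5 were lower, with Sbno2 at -1.81 ± 0.117, the opposite direction to that with IL-10. At rest JQ1 called 27 of 71 lower and 17 higher (23.7% and 21.9% of all genes tested), with Sbno2 at -1.01 ± 0.117 and Nfil3 at 1.46 ± 0.15. Ligase partners were split, Cul5 at -0.40 ± 0.163 and Tceb2 at 0.29 ± 0.096.

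After JQ1, LPS called 39 of 71 pathway genes higher and 16 lower (27.6% and 31.0% of all genes tested), and after IL-10 53 of 72 higher and 11 lower (33.2% and 33.8%). Between both pretreatments under LPS 11 of 72 were higher and 37 lower with JQ1 (23.8% and 31.6%). The interaction with JQ1 called 30 of 71 lower and 10 higher (23.8% and 17.7%), among them Stat3 (-1.24 ± 0.133) and Jak2 (-1.15 ± 0.159), and the interaction with IL-10 called 7 of 66 lower and 11 higher (3.44% and 4.00%), with Stat3 at -0.75 ± 0.132.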

How the data were processed

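Stranded, ribosomal RNA-depleted libraries were sequenced as paired ends. The authors extracted reads with TagDust, aligned them with STAR to mm9 and estimated gene counts with RSEM 1.2.31, both under default settings, so reads were assigned without regard to strand. The deposited expected counts are RSEM estimates of reads per gene that need not be whole (5.4% to 6.63% of genes per library were not) and were rounded. The deposited TPM values are the authors' abundances scaled by transcript length. The deposited lengths were read by the loading step and entered no test, and the authors' FPKM values were not used.

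The Wald test of DESeq2 1.42.0 (R 4.3.3) was run on all 24485 genes and 18 libraries with group as the term, after the study's methods, with default independent filtering. A call required a p of under 0.05 after Benjamini-Hochberg adjustment. Members are named whatever their values. From each pathway list up to 3 genes per comparison were eligible, those called, averaging 50 or more normalised counts, and with the largest change. Stat5a with LPS + JQ1 is given outside this rule, without a call. The members and lists were chosen with earlier results of these data known. Labels describe matched cultures from 3 mice, so replicate numbers pair the libraries. Correlations of paired deviations over 12251 genes were -0.09 to 0.38. Lane followed mouse except for replicate 2, which was on lane 7 without LPS and lane 8 with it. Replicate pairs differed beyond sampling noise (chi-square per degree of freedom 3.97 to 28.3). Alternatives were a block for mouse, lane, edgeR 4.0.16, other scalings and filters, limma 3.58.1 on log2(TPM + 1), and libraries left out, with 1 choice made after the data were seen, the removal of unstimulated replicate 1 from comparisons that do not use it. Scripts were tested on simulated data. Floors cover counting error only. The SE of the DESeq2 fit also holds the estimated dispersion between libraries, and the SD is the spread of a group's 3 libraries. Values of some genes in the lists are not reported here.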

Additional observations from a re-analysis of the deposited data

Results flagged for a closer look

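In 5 cases the effect of a pretreatment on a SOCS gene differed between cells with and without LPS by the interaction term of the DESeq2 fit. For JQ1 these were Socs1 (-1.65 on the log2 scale, adjusted p = 0.00266) and Socs7 (-1.25, adjusted p = 1.48e-17). For IL-10 these were Socs3 (-2.71, adjusted p = 0.0056), Socs2 (-1.68, adjusted p = 0.0317) and Socs7 (-0.62, adjusted p = 0.000365). Without mouse 2 neither Socs1 for JQ1 (-1.22, adjusted p = 0.208) nor Socs3 (-2.38, adjusted p = 0.0782) and Socs7 (-0.52, adjusted p = 0.175) for IL-10 passed, Socs3 did not pass without mouse 3 either (-2.44, adjusted p = 0.0924), and Socs2 had no adjusted p without any one of the mice. In groups of 3 libraries a single high or low value could not be tested as an outlier.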

How the results depend on the processing

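Direction and call held in 1423 of 1642 refits of single members, while 67 lost and 58 gained a call, 13 reversed and 81 changed sign without a call in either fit. Another 14 gave no adjusted p, 8 of Socs2 in the interaction with IL-10 and, for IL-10 against unstimulated, 5 of Socs2 and 1 of Cish. The rise of Socs4 with LPS reversed on scaling to the library total (-0.47) and in limma on log2(TPM + 1) (-0.31, also with the TPM filter) and log2(TPM + 0.1) (-0.33). Socs4 after IL-10 reversed in the same settings (-0.51, -0.40, -0.40 and -0.43), and Socs4 after JQ1 (-0.03), Socs6 for LPS + JQ1 against LPS (0.37) and Socs7 between both pretreatments under LPS (0.24) reversed on the library total. These settings move the centre of all genes. With mouse as a replicate block Socs1 for LPS + IL-10 against LPS (-0.73) and Cish between both pretreatments under LPS (1.07) gained a call and Socs2 in the latter lost it (0.84), and no other member call changed. Leaving out libraries, the number of members called ran from 2 to 5 for JQ1 against unstimulated, 2 to 5 for LPS + JQ1 against LPS, 2 to 6 for LPS + IL-10 against LPS, 1 to 5 between both pretreatments under LPS, 1 to 3 for the interaction with JQ1 and 0 to 4 for that with IL-10. That 0 came from DESeq2 without mouse 2, where 3 members had an unadjusted p under 0.05 and 1 had no adjusted p; edgeR and limma were not run there. The Socs3 interaction with JQ1 ran from -0.98 to 0.77. Depth limits Socs2 in all groups and Cish without LPS, where libraries held few counts.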
